A study of Homo sapiens with 94 samples.

Results

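The BCL2 family decides at the mitochondrial membrane whether a cell enters apoptosis, and 10 of its genes were followed here in mesothelioma xenografts after inhibition of TEAD transcription factors. The genes were chosen by name, as anti-apoptotic members (BCL2, BCL2L1, BCL2L2, MCL1), BH3-only members (BCL2L11, BMF, BBC3, PMAIP1) and effectors (BAX, BAK1). They are 10 of the 20239 genes of the expression table, and each was found once by its symbol. RNA-seq was performed on 94 tumors of NCI-H226, an established human mesothelioma cell line with an NF2 deletion, grown in SCID mice. Each mouse received a single oral dose of K-975, a covalent inhibitor of the TEAD lipid pocket, at 30, 100 or 200 mg/kg, or the vehicle alone (ethanol, Solutol and glucose), or was left untreated.

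Tumors were taken in 3 studies, at 1 h, at 3-6 h and at 24 h. In the studies at 1 h and 24 h each group had 5 tumors, except for 4 with vehicle at 24 h. In the 3-6 h study 2 cage groups of 5 mice stood for vehicle and for each of the doses, beside 5 untreated mice. Which of a pair of cage groups belongs to 3 h and which to 6 h is not in the labels. The dosing volume was 20 mL/kg for vehicle and 200 mg/kg but 10 mL/kg for 30 and 100 mg/kg, so for those 2 doses the drug and the dosing volume cannot be told apart. At 1 h and 24 h cage and treatment cannot be told apart either. Between the 2 cage groups of a treatment at 3-6 h, cage and sampling time cannot be told apart. A single cage group set against vehicle carries its treatment, cage and sampling time together. All tumors derive from 1 cell line in an immunodeficient host, and stroma and blood of such tumors are murine. The labels do not state whether animals of a group came from separate implantations.

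The guardians BCL-xL (BCL2L1), BCL-w (BCL2L2), MCL1 and BCL2 hold BAX and BAK1 in check. BH3-only proteins, such as BIM (BCL2L11), BMF, PUMA (BBC3) and NOXA (PMAIP1), bind the guardians or the effectors, and free BAX and BAK1 then permeabilise the outer mitochondrial membrane. Much of this control acts on protein level, by binding, phosphorylation and degradation, whereas p53 induces BBC3, PMAIP1 and BAX transcripts, and FOXO factors and loss of growth signals induce BCL2L11.

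Values are FPKM, fragments scaled to gene length and library total, and tests were made with limma on log2(FPKM + 1). The reads behind each value are unknown. In 91 libraries 11344 to 11665 genes reached an FPKM of 1. The other 3 libraries (30 mg/kg 24 h replicate 1, 100 mg/kg 24 h replicate 5 and 200 mg/kg 1 h replicate 1) had 702 to 8531 such genes and were left out unless stated. The mesothelial markers had a median of at least 1 FPKM for 10 of 10 genes, and of the 8 leukocyte markers 4 had a median of 0, among them CD3E, LYZ and MPO, and 2 a median of at least 1 FPKM. The summed level of the leukocyte list was 44.4 to 267 FPKM (median 140.3). Because the samples are bulk tumors, fewer cells of a type and less RNA per cell cannot be told apart.

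On the genome (GRCh38, gene bounds of GENCODE 29) the guardians lie at chr18:63123346-63320128 for BCL2, chr20:31664452-31723989 for BCL2L1, chr14:23298790-23311759 for BCL2L2 and chr1:150574551-150579738 for MCL1. The BH3-only genes lie at chr2:111119378-111168447 for BCL2L11, chr15:40087890-40108892 for BMF, chr19:47220822-47232766 for BBC3 and chr18:59899948-59904306 for PMAIP1. BAX lies at chr19:48954815-48961798 and BAK1 at chr6:33572547-33580293. BCL2L2 shares 813 exonic bases, 19.4% of its own, with the read-through gene BCL2L2-PABPN1 on the same strand. Both genes have a row in the table, so reads of the shared exons may be assigned to either.

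Promoter windows, 250 bases before to 50 bases after a RefSeq transcription start (GRCh38.p14), were searched on both strands for the TEAD motif CATTCC, the AP-1 motif TGANTCA and the FOXO motif TGTTTAC. Windows were at hand for 8 of the 10 genes (10 windows, 2 each for BCL2L1 and BMF). The TEAD motif was found in 1 of the 10 windows, that of BBC3, against 14.0% of all 35116 windows. The AP-1 motif was found in the same BBC3 window (7.71% of all windows) and the FOXO motif in that of BCL2L11 (3.42% of all windows). A match describes letters, not binding. The windows of BBC3 (chr19:47232618-47232917, minus strand) and BCL2L11 (chr2:111120664-111120963, plus strand) are shown because these are the only members with a match, with the matches in capitals, on the strand of the gene.
BBC3: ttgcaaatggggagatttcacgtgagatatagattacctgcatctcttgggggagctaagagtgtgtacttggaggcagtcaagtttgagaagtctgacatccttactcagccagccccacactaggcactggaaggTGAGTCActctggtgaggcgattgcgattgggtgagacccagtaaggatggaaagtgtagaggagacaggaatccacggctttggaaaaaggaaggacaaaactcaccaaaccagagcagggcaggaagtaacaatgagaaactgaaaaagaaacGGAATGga
BCL2L11: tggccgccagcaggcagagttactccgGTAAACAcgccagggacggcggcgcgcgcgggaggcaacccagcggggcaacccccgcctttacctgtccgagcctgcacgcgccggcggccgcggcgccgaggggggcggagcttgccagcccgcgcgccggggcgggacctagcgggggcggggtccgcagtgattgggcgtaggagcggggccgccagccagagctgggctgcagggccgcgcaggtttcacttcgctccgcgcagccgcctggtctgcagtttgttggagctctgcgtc
In BBC3 the first capitals are the AP-1 motif and the second the TEAD motif read on the other strand, which lies after the transcription start. In BCL2L11 the capitals are the FOXO motif read on the other strand.

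The members fell into tiers of level, with BAX alone at the top. Over the 15 untreated tumors BAX had 168.6 ± 16.3 FPKM (SD, n = 15), BCL2L1 57.8 ± 6.28 and MCL1 54.0 ± 6.56. BAX exceeded BCL2L1 in 15 of 15 tumors, whereas BCL2L1 exceeded MCL1 in 10 of 15, a difference smaller than the SD of either. A second tier followed far below, namely BCL2L2 with 5.36 ± 2.80, BBC3 with 5.24 ± 1.06, BAK1 with 5.09 ± 1.01, BCL2L11 with 5.07 ± 4.63 and PMAIP1 with 3.37 ± 1.26 FPKM. Neighbours within this tier did not differ beyond their spread, since the upper one of a pair was higher in 6 to 11 of 15 tumors. At the bottom stood BCL2, with 0 to 0.759 FPKM, and BMF, which was listed at 0 in 14 of 15 tumors. Capture probes were used to enrich transcripts, so levels of different genes also depend on their probes.

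The comparison with vehicle asked whether K-975 moved these genes, and at 24 h the response over all genes was the broadest of the 3 studies. At 200 mg/kg against vehicle 0 of the 9 members that could be tested passed an adjusted p of 0.05 by limma, beside 7.41% of the 13036 genes tested, and 0 of 9 had an unadjusted p under 0.05, beside 21.9% of all genes. BCL2 was too low to be tested, as it did not reach an FPKM of 1 in 4 libraries. In the same tumors CCN1 (CYR61), a TEAD target, changed by -1.26 (log2 fold change, SE 0.201, adjusted p = 1.23e-05) and was below all vehicle tumors in 5 of 5. The median log2 fold change was 0.06 over the 9 members and 0.04 over all genes tested.

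**Figure D1:**
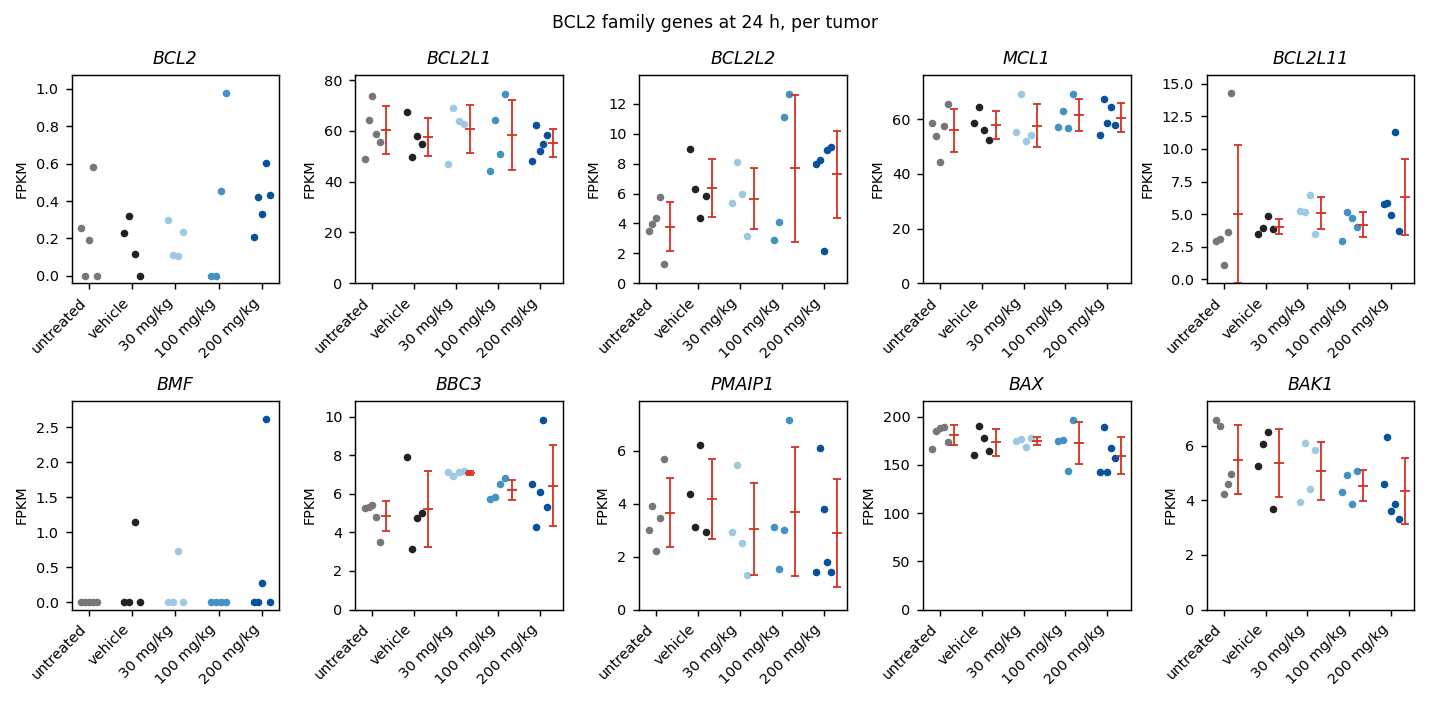
FPKM of the 10 BCL2 family genes in each tumor of the 24 h study by treatment (dots, 1 per tumor; the red bar is the mean ± SD and is not drawn for BCL2 and BMF, many of whose values are 0; axes differ between genes). The treated tumors overlap the vehicle tumors for each gene, and single high tumors stand out for BCL2L11 and BMF.

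Among the guardians, BCL2L1, which encodes BCL-xL, had 67.5, 49.8, 58.1 and 54.7 FPKM with vehicle at 24 h and 48.3, 62.5, 52.0, 55.0 and 58.4 with 200 mg/kg. The groups overlapped almost fully. The log2 fold change was -0.05 (95% interval -0.30 to 0.19, adjusted p = 0.851 by limma). MCL1, a short-lived guardian, had 58.6, 64.5, 56.0 and 52.5 FPKM with vehicle and 54.2, 67.5, 58.8, 64.4 and 58.0 with 200 mg/kg. Again 4 of 5 treated tumors lay within the vehicle range. Its log2 fold change was 0.06 (95% interval -0.13 to 0.26, adjusted p = 0.762 by limma). For both genes the interval stayed within 0.30 of 0 on the log2 scale.

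BCL2L2 was less certain. It had 8.99, 6.32, 4.35 and 5.87 FPKM with vehicle and 7.99, 8.28, 2.18, 8.91 and 9.10 with 200 mg/kg at 24 h. A single treated tumor lay below all others and the rest near or within the vehicle range. Its difference from vehicle on the log2 scale was 0.09 (95% interval -0.75 to 0.93, adjusted p = 0.933 by limma), and it turned to -0.27 when all 94 libraries entered with array weights. Against untreated tumors it was 0.77 (adjusted p = 0.237 by limma). BCL2, the founding guardian, had 0.227, 0.320, 0.116 and 0 FPKM with vehicle and 0.209, 0.419, 0.329, 0.603 and 0.432 with 200 mg/kg. These levels are close to 0 in both groups, with a highest value of 1.12 FPKM in any of the 91 libraries, and no test was made.

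Of the BH3-only genes, BCL2L11 (BIM) had 3.46, 3.97, 4.85 and 3.86 FPKM with vehicle at 24 h and 5.78, 5.83, 4.97, 11.3 and 3.74 with 200 mg/kg. Thus 4 of 5 treated tumors lay above all vehicle tumors and 1 lay within their range. The log2 fold change of 0.47 had a wide 95% interval, from -0.48 to 1.42, and an adjusted p of 0.610 by limma. Untreated tumors of the same study had 2.95, 3.09, 1.07, 3.60 and 14.3 FPKM. Of these, 4 lay below the lowest treated tumor and 1 above the highest.

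BMF, a BH3-only protein linked to cytoskeletal stress, was listed at 0 in 3 of 4 vehicle tumors, with 1.14 FPKM in the other. With 200 mg/kg it had 0, 0, 0.280, 2.61 and 0 FPKM. In the 24 h study no group had BMF above 0 in more than 2 tumors. Over the 91 libraries BMF was above 0 in 15, of which 1 was among 15 untreated tumors, 4 among 19 vehicle tumors and 10 among 57 tumors with K-975. The level was at least 1 FPKM in 0, 2 and 5 of these tumors. A listed 0 need not be silence, since POLR2A, which every cell uses, was listed at 0 in 37 of the 91 libraries.

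BBC3 (PUMA) had 7.94, 3.16, 4.73 and 5.03 FPKM with vehicle and 6.53, 4.30, 6.12, 9.85 and 5.32 with 200 mg/kg at 24 h. Only 1 treated tumor lay above all vehicle tumors, and 1 vehicle tumor was lower than all treated ones. On the log2 scale the difference was 0.27 (95% interval -0.09 to 0.63, adjusted p = 0.399 by limma). PMAIP1 (NOXA), which binds MCL1, had 4.38, 3.13, 6.23 and 2.94 FPKM with vehicle and 1.42, 6.10, 3.82, 1.78 and 1.43 with 200 mg/kg. Here 3 of 5 treated tumors lay below all vehicle tumors, with the other two inside the vehicle range. The log2 fold change was -0.50 (95% interval -1.22 to 0.22, adjusted p = 0.443 by limma).

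The effector BAX had 160, 190, 178 and 165 FPKM with vehicle and 143, 189, 142, 167 and 157 with 200 mg/kg at 24 h. Of the treated tumors 3 of 5 lay below all vehicle tumors. Its difference from vehicle on the log2 scale was -0.12 (95% interval -0.30 to 0.06, adjusted p = 0.462 by limma). BAK1, the effector that resides on the mitochondrion, had 5.27, 6.06, 6.49 and 3.68 FPKM with vehicle and 4.59, 6.31, 3.61, 3.87 and 3.33 with 200 mg/kg. The groups overlapped, and 2 of 5 treated tumors were below all vehicle tumors. Its log2 fold change was -0.26 (95% interval -0.61 to 0.10, adjusted p = 0.419 by limma).

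At the lower doses at 24 h no member passed either. At 100 mg/kg 0 of 9 members were called, beside 1.12% of all genes, and at 30 mg/kg 0 of 9, beside 0.0384%. Before adjustment 0 and 1 of the 9 had a p under 0.05, beside 14.1% and 10% of all genes. BBC3 had the largest of these changes relative to its error, at 30 mg/kg. Its 4 tumors lay close together, at 7.13, 6.95, 7.15 and 7.19 FPKM, inside the wide range of the vehicle tumors, with a log2 fold change of 0.44 (SE 0.190, adjusted p = 0.429 by limma). When all 94 libraries were used, MCL1 and BAX passed at 30 mg/kg, where both genes are listed at 0 in the shallow replicate 1, and 22.7% of all genes passed with them.

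Trends over vehicle and the 3 doses gave the same picture. At 24 h 0 of 9 members passed, beside 7.11% of all genes, at 3-6 h 0 of 9, beside 0.414%, and at 1 h 0 of 9, beside 0%. The lowest p of the 27 tests, and the 1 under 0.05 before adjustment, was that of MCL1 at 3-6 h, with a slope of 0.043 on the log2 scale per dose step (adjusted p = 0.578 by limma).

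At 3-6 h, with 10 tumors a group, the intervals were narrower and again 0 of 9 members passed at 30 mg/kg (beside 0.0153% of all genes), at 100 mg/kg (0.43%) and at 200 mg/kg (0.069%). Before adjustment 1, 3 and 1 of the 9 had a p under 0.05, beside 7.03%, 10.3% and 7.23% of all genes. BCL2L1 ranged from 43.6 to 67.1 FPKM with vehicle (median 61.2) and from 41.3 to 64.3 with 100 mg/kg (median 47.7). The lower median at 100 mg/kg came with overlapping groups. On the log2 scale the difference was -0.23 (95% interval -0.40 to -0.07, adjusted p = 0.241 by limma), against -0.03 at 200 mg/kg. MCL1 ranged from 45.9 to 59.0 FPKM with vehicle (median 49.6) and from 46.6 to 67.8 with 200 mg/kg (median 53.5), with a log2 fold change of 0.14 (95% interval 0.0041 to 0.27, adjusted p = 0.669 by limma). At 100 mg/kg the change of MCL1 was also 0.14 (adjusted p = 0.423 by limma). BAX differed by at most 0.08 on the log2 scale at any dose, with intervals between -0.11 and 0.20.

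**Figure D2:**
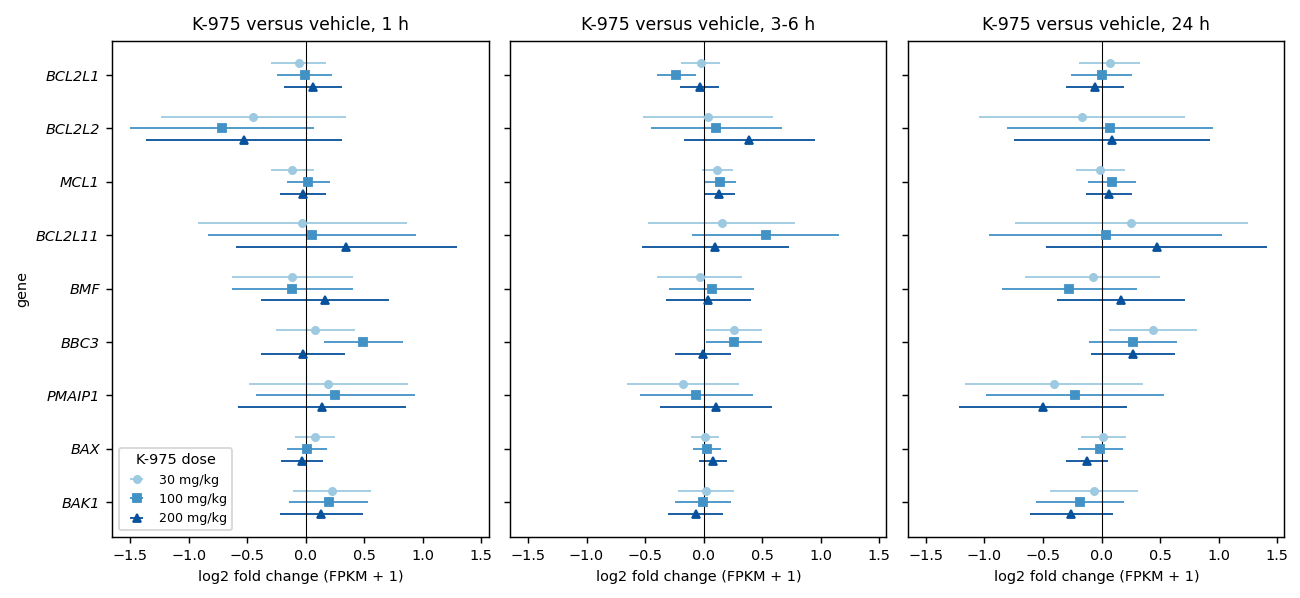
Log2 fold changes of the 9 tested BCL2 family genes on the log2(FPKM + 1) scale, K-975 against vehicle in each study (symbols by dose, lines are 95% intervals of the limma fit). The intervals of BAX, MCL1 and BCL2L1 are the narrowest and lie near 0, and those of BCL2L2 and BCL2L11 are the widest.

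At 1 h 0 of 9 members passed at 30 mg/kg (beside 0% of all genes), at 100 mg/kg (0.00767%) and at 200 mg/kg (0%). Before adjustment 0, 1 and 0 of the 9 had a p under 0.05, beside 4.38%, 4.97% and 3.34% of all genes. BBC3 had 4.75, 5.20, 3.32, 5.92 and 6.91 FPKM with vehicle and 9.41, 4.95, 6.82, 9.17 and 8.44 with 100 mg/kg. There 3 of 5 treated tumors lay above all vehicle tumors. The log2 fold change was 0.49 (95% interval 0.16 to 0.83), with an adjusted p of 0.953 by limma, whereas at 200 mg/kg it was -0.02 (95% interval -0.38 to 0.34).

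The remaining members gave no call at these times either. PMAIP1 ranged from 1.27 to 5.94 FPKM with vehicle at 3-6 h (median 4.93) and from 2.16 to 7.47 with 200 mg/kg (median 4.05). Its groups overlapped, and its log2 fold changes at 30, 100 and 200 mg/kg were -0.18, -0.06 and 0.10 at 3-6 h and 0.20, 0.25 and 0.14 at 1 h. BAK1 ranged from 4.24 to 6.26 FPKM with vehicle at 3-6 h (median 4.87) and from 3.63 to 7.38 with 200 mg/kg (median 4.67). The treated tumors spread beyond the vehicle range on both sides. The log2 fold changes of BAK1 were 0.023, -0.0067 and -0.07 at 3-6 h and 0.22, 0.20 and 0.13 at 1 h. Those of BMF lay between -0.12 and 0.17 in these 6 comparisons, with most tumors listed at 0.

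The single call among the members concerned BBC3 in 1 of the cage groups at 3-6 h. Cage group 7, which received 100 mg/kg, had 9.80, 10.7, 6.79, 7.61 and 8.01 FPKM. The 10 vehicle tumors ranged from 4.51 to 6.46 FPKM, with a median of 5.47. All 5 treated tumors thus lay above all 10 vehicle tumors. Its difference from vehicle on the log2 scale was 0.56 (SE 0.147, 95% interval 0.27 to 0.85, adjusted p = 0.0301 by limma), and 1 of 9 members passed in this comparison, beside 1.33% of all genes (0.568% higher, 0.759% lower). Since 6 cage groups were each set against vehicle, 54 member tests were made, of which this was the 1 call. In the other 5 cage groups 0 of 9 members passed, beside 0% (cage groups 6 and 8), 0.00767% (cage group 4), 0.0307% (cage group 9) and 0.276% (cage group 5) of all genes.

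The other cage group at this dose did not share it. The 2 cage groups may differ in sampling time, 3 h against 6 h, as well as in cage, and these cannot be told apart. Cage group 6 had 5.78, 4.12, 5.27, 5.31 and 5.95 FPKM of BBC3, within or just below the vehicle range, with a log2 fold change of -0.04 (adjusted p = 1 by limma). The difference between the 2 cage groups, tested after these values had been seen, was 0.60 (SE 0.170, adjusted p = 0.240 by limma, 0.046% of all genes called). Both vehicle cage groups, numbers 2 and 3, differed from each other in 0.33% of all genes, and in BBC3 by -0.22 (adjusted p = 0.719 by limma). The call was lost without cage group 7 replicate 1 (adjusted p = 0.0984) or replicate 2 (adjusted p = 0.108), with untreated tumors as the reference (log2 fold change 0.52, adjusted p = 0.113) and when only the groups compared were fitted (adjusted p = 0.106). With vehicle cage group 3 alone as the reference, a choice added after the values were seen, the change was 0.67 (adjusted p = 0.0395), and with vehicle cage group 2 alone it was 0.45 and did not pass (adjusted p = 0.192). These are limma values, as are adjusted p-values of 0.120 with all 94 libraries under array weights and 1 with all 94 unweighted.

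Relative depth, estimated from rarely detected genes, was 0.440 to 0.838 in cage group 7 and 0.644 to 1.15 in the vehicle tumors. Within groups BBC3 and relative depth had a Pearson r of -0.08 over 91 libraries (permutation p = 0.445, Spearman's rho -0.03, permutation p = 0.769), and r was -0.04 without the 2 libraries farthest from the median. Adjusted over the 10 relations computed, these were p = 0.849 and p = 0.902 in the permutation test. In cage group 7 the fibroblast marker PDGFRA rose by 0.92 on the log2 scale (adjusted p = 0.0424 by limma), 1 of the 4 markers tested of 6 in its list, to 0.328, 5.87, 0.272, 0.163 and 1.28 FPKM. The summed level of that list was 46.6 to 76.0 FPKM in cage group 7 and 44.3 to 71.3 with vehicle, and MYH11 had a median of 0 over the 91 libraries. This call was lost in 10 of 15 cases when 1 library was left out, with adjusted p-values up to 0.381, and the log2 fold change was 0.47 without replicate 2. Its part in the result was not tested. FOXO3, a transcription factor known to act on BBC3 and BCL2L11, had 15.0, 16.3, 10.8, 15.0 and 12.4 FPKM in cage group 7. FOXO3 ranged from 8.21 to 10.2 FPKM in vehicle cage group 2 and from 10.7 to 12.2 in vehicle cage group 3, and its log2 fold change was 0.40 (adjusted p = 0.0135 by limma). This call was lost without replicates 1, 2 or 4 of cage group 7, with adjusted p-values up to 0.0674. Against vehicle cage group 3 alone the change of FOXO3 was 0.26 and did not pass (adjusted p = 0.299 by limma). From vehicle cage group 2 alone it was 0.55 (adjusted p = 0.00261 by limma). BCL2L11 changed by 0.40 in cage group 7 and did not pass (95% interval -0.37 to 1.18, adjusted p = 0.703 by limma). The part of FOXO3 in the BBC3 result was not tested.

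**Figure D3:**
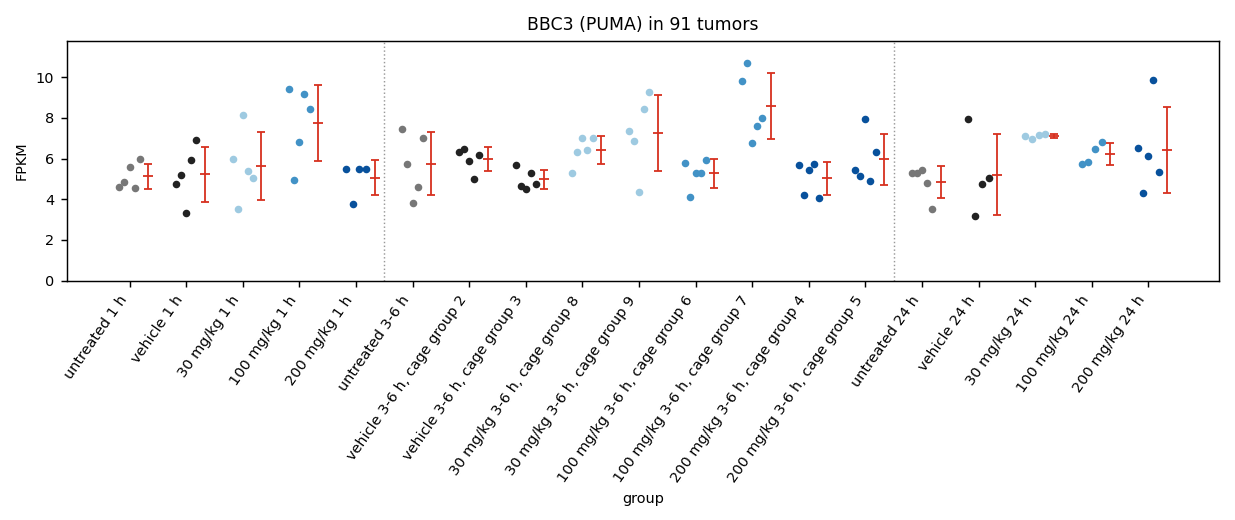
FPKM of BBC3 in 91 tumors by group (dots, 1 per tumor; red bars are the mean ± SD; dotted lines part the studies at 1 h, 3-6 h and 24 h). Cage group 7 with 100 mg/kg lies above all vehicle tumors of its study, whereas cage group 6 at the same dose and the groups with 200 mg/kg at 1 h and 3-6 h overlap vehicle.

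Across the 3 studies the log2 fold changes of BBC3 against vehicle were 0.08, 0.26 and 0.44 at 30 mg/kg, 0.49, 0.26 and 0.27 at 100 mg/kg, and -0.02, -0.0044 and 0.27 at 200 mg/kg, each list in the order 1 h, 3-6 h and 24 h. The 3 doses of a study share their vehicle tumors. The 6 estimates at 30 and 100 mg/kg, the doses given at 10 mL/kg, were all above 0. The intervals of 4 of them left out 0 without passing after adjustment. Grouping these doses by volume was not planned, and BBC3 is followed here because of its call. The estimate at 100 mg/kg at 3-6 h averages cage group 6 (-0.04) and cage group 7 (0.56), so the call above enters it. With all 94 libraries the estimates at 24 h turned to -0.17 at 30 mg/kg and -0.30 at 100 mg/kg. Whether the doses differed from each other was not tested.

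BCL2L11 and BCL2L2 varied most among tumors of a group. The SD within groups on the log2(FPKM + 1) scale was 0.73 for BCL2L11, against a median of 0.38 over the 949 genes of like level, which places it at the 97.6 percentile. For BCL2L2 it was 0.64, at the 96.5 percentile of 1122 genes. PMAIP1 followed at the 83.3 percentile, whereas BBC3 (19.7), BAK1 (17.5) and MCL1 (21.6) varied less than most genes of their level.

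High values of BCL2L11 occurred with and without K-975. Its median was 3.09 FPKM in untreated, 3.66 in vehicle and 5.13 in K-975 tumors of all studies, with highest values of 15.2, 18.6 and 13.0 FPKM. More than 10 FPKM, a limit chosen after the values were seen, was reached in 3 of 15 untreated, 1 of 19 vehicle and 5 of 57 K-975 tumors. At 3-6 h BCL2L11 ranged from 2.01 to 9.12 FPKM with vehicle (median 3.59) and from 1.52 to 13.0 with 100 mg/kg (median 5.94). The ranges overlapped widely, and the log2 fold change was 0.53 (95% interval -0.10 to 1.16, adjusted p = 0.593 by limma).

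BCL2L2 varied inversely with its read-through neighbour. Within groups the log2 levels of BCL2L2 and BCL2L2-PABPN1 had a Pearson r of -0.47 over 91 libraries (permutation p = 2.0e-05, adjusted 0.0002 over 10 relations) and a Spearman's rho of -0.45 (permutation p = 2.0e-05, adjusted 0.0002). Without the 2 libraries farthest from the median r was -0.41. The SD within groups was 0.64 for BCL2L2, 0.40 for BCL2L2-PABPN1 and 0.25 for the sum of both, which ranged from 12.1 to 29.8 FPKM. A sum lies at a higher level than its parts, and its SD expected without any relation was not computed. The 2 genes share exons, library and depth, and how the reads of shared exons were split is not given in the sources used here.

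BCL2L2 was also the member most tied to relative depth, with an r of -0.35 within groups (permutation p = 0.00058, adjusted 0.0029), a rho of -0.24 (permutation p = 0.0238, adjusted 0.119) and an r of -0.24 without the 2 farthest libraries. For the other 8 tested members r lay between -0.08 and 0.08. The tumor with 2.18 FPKM of BCL2L2, 200 mg/kg 24 h replicate 3, had the highest relative depth of the 91 libraries, 1.85. The log2 fold change of BCL2L2 at 200 mg/kg was 0.09 at 24 h, 0.39 at 3-6 h and -0.52 at 1 h. For the sum of both genes, an alternative added after the values were seen, it was 0.19, -0.05 and -0.17. None of these 6 values passed.

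**Figure D4:**
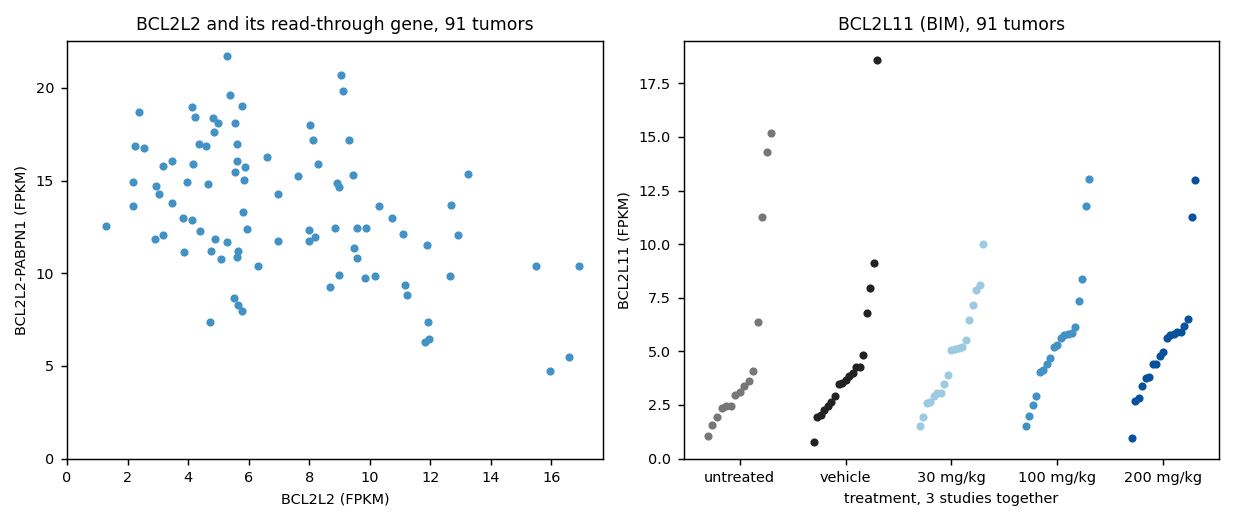
Levels of BCL2L2 with those of its read-through neighbour BCL2L2-PABPN1, and of BCL2L11 in each tumor by treatment with the 3 studies together and tumors sorted by value (FPKM, 91 tumors). Tumors high in BCL2L2 tend to be low in BCL2L2-PABPN1, and the highest BCL2L11 value, 18.6 FPKM, belongs to a vehicle tumor.

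Vehicle itself was compared with no treatment. None of the 9 members passed in any study (0% of all genes at 1 h, 3-6 h and 24 h), and 0 of 9 had an unadjusted p under 0.05, beside 4.73%, 4.83% and 4.20% of all genes. The effect of 200 mg/kg was also compared between studies. From 3-6 h to 24 h 0 of 9 members differed (1.72% of all genes), from 1 h to 24 h 0 of 9 (0.583%) and from 1 h to 3-6 h 0 of 9 (0%), with 0 of 9 at an unadjusted p under 0.05 by limma in each, beside 16.3%, 13.2% and 4.63% of all genes.

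Among the other BCL2 family genes 1 of 10 tested (13 listed) rose and 1 fell at 200 mg/kg at 24 h, beside 3.8% and 3.61% of all genes. BCL2L13, a mitochondrial membrane protein that serves as a mitophagy receptor, had 14.0, 16.1, 13.5 and 16.7 FPKM with vehicle and 19.6, 22.4, 26.0, 24.6 and 21.8 with 200 mg/kg. The groups did not overlap, and the log2 fold change was 0.57 (SE 0.142, adjusted p = 0.00748 by limma). Untreated tumors had 16.6 to 20.6 FPKM, and with them as the reference the change was 0.34 (adjusted p = 0.103 by limma).

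BNIP3L (NIX), another mitophagy receptor, had 118.5, 102.9, 108.2 and 163.5 FPKM with vehicle and 65.9, 101.9, 82.6, 91.2 and 88.0 with 200 mg/kg. All 5 treated tumors were below all vehicle tumors, the highest of them narrowly. On the log2 scale the difference was -0.51 (SE 0.167, adjusted p = 0.0476 by limma). Leaving out 1 library at a time raised the adjusted p above 0.05 in 7 of 9 cases, up to 0.219. Of the rest, BOK, an effector relative, had -0.26 (adjusted p = 0.285 by limma), BIK, a BH3-only gene, -0.45, and BID, the link to death receptors, -0.07. The median over the 10 genes was -0.29, against 0.04 over all genes.

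In the list of apoptosome and caspase genes 0 of 16 rose and 1 fell, again beside 3.8% and 3.61% of all genes. These shares are also to be set beside the lists that follow. The gene that fell was VDAC1, an outer mitochondrial membrane channel, which is itself neither an apoptosome nor a caspase gene. VDAC1 had 21.8, 23.4, 33.3 and 34.0 FPKM with vehicle and 17.0, 15.7, 18.9, 18.3 and 11.6 with 200 mg/kg. The groups did not overlap, with a log2 fold change of -0.74 (SE 0.203, adjusted p = 0.0147 by limma). With untreated tumors as the reference it was -0.41 and did not pass (adjusted p = 0.177 by limma). The call of VDAC1 was lost without vehicle replicate 3 or 4 or 200 mg/kg replicate 5, with adjusted p-values up to 0.0757 by limma. Of the inhibitor of apoptosis genes (5 tested), death receptors and ligands (5 tested), regulators of MCL1 stability (5 tested) and integrated stress response genes (9 tested), limma called 0, and 1, 0, 0 and 1 had an unadjusted p under 0.05.

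Of the 14 p53 target genes 1 rose, XPC, a DNA repair gene (0.51, adjusted p = 0.00327 by limma), and 1 fell, GADD45A, a stress gene (-0.56, adjusted p = 0.0362 by limma). The call of GADD45A was lost in 6 of 9 cases when 1 library was left out, with adjusted p-values up to 0.202. Of the regulators of BIM and BMF 1 of 8 tested rose. FOXO4, a FOXO transcription factor, had 2.43, 3.16, 2.17 and 1.84 FPKM with vehicle and 10.5, 4.21, 4.38, 4.98 and 3.96 with 200 mg/kg. All treated tumors lay above all vehicle tumors. The log2 fold change was 0.89 (SE 0.268, adjusted p = 0.0288 by limma), and 0.67 without the highest treated tumor (adjusted p = 0.159). The call of FOXO4 was also lost when vehicle replicate 1, 3 or 4 was left out. An untreated tumor reached 10.8 FPKM, and with untreated tumors as the reference the change was 0.50 (adjusted p = 0.228 by limma).

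For reference, 5 of 13 YAP1-TEAD pathway genes fell and 0 rose at 200 mg/kg, among them CCN2 (-1.44, adjusted p = 2.11e-06 by limma) and TEAD4 (-0.74, adjusted p = 3.61e-05 by limma). The mesothelial markers CALB2, MSLN and KRT19 were higher, 3 of 10, and the summed level of the list was 3420 to 4778 FPKM against 3007 to 3133 with vehicle. Leaving out 1 library at a time ended the call of MSLN in 7 of 9 cases, of KRT19 in 6 and of CALB2 in 4. Leukocyte, endothelial, fibroblast and erythroid or hepatic markers gave 0 calls by limma, with 1, 0, 0 and 0 at an unadjusted p under 0.05. The part of the mesothelial difference in the results above was not tested.

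**Figure D5:**
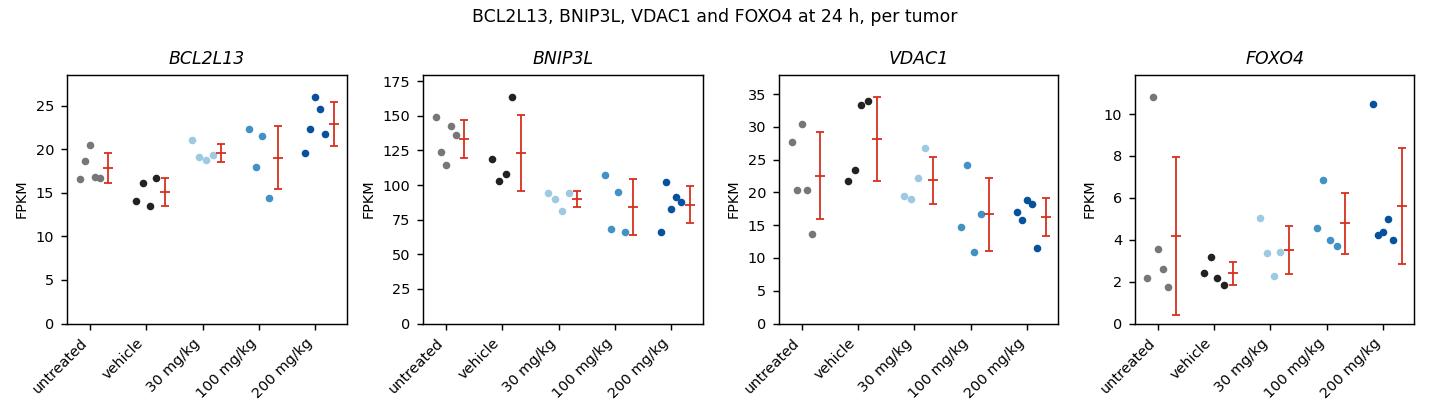
FPKM in each tumor of the 24 h study for BCL2L13, BNIP3L, VDAC1 and FOXO4 by treatment (dots, 1 per tumor; red bars are the mean ± SD). With 200 mg/kg BCL2L13 and FOXO4 lie above all vehicle tumors and BNIP3L and VDAC1 below.

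Across the means of the 19 groups, the genes most alike to BBC3 in log2(FPKM + 1) were BCDIN3D (Pearson r 0.81), GNPAT (0.81) and LMNA (0.78). Among those most alike to BMF were HUWE1 (0.81) and DMXL1 (0.76), and among those most alike to BCL2L11 were GDF5 (0.76) and ENSG00000262526 (0.75). These genes were picked for the highest r over all genes, so a weaker likeness to the other members was set by that choice. Between BBC3, BMF or BCL2L11 and the other tested members r ran from -0.39 (BBC3 and BCL2L1) to 0.44 (BMF and BCL2L2). It was 0.32 between BMF and BCL2L11. The group means of BMF rest on the few tumors in which it was above 0. The groups share studies and the search ran over all genes, so these values describe these groups.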

How the data were processed

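RNA from 94 xenograft tumors was prepared with KAPA RNA HyperPrep, enriched with HyperCap target probes and sequenced as paired ends on a NextSeq. The authors deposited 1 table of FPKM values. The submitters' processing notes name STAR and GRCh38. The quantification tool, the annotation and the handling of mouse reads are not given in the sources used here. FPKM holds no read counts, so depth is known only in relative terms and no sampling interval can be given.

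The table had 20555 entries. After leaving out 316 further entries of a gene ID, 20239 remained, and 32 blank cells in 21 genes were read as 0. Current symbols were found for 20124. Gene starts in the table count from 0 and were printed counted from 1, and strands were taken from GENCODE 29. Libraries with fewer than 10000 genes at an FPKM of 1 were left out (3 of 94).

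A linear model of log2(FPKM + 1) over 91 libraries and 19 groups was fitted with limma 3.58.1 in R 4.3.3 (lmFit, then eBayes with trend and robust), for the 13036 genes that reached an FPKM of 1 in 4 or more libraries. P-values were adjusted by Benjamini and Hochberg within each comparison over all genes tested, with a threshold of 0.05, two-sided. They set a mean difference against the spread among tumors within groups, and cover no variation between cages or repeated experiments. Correlations within groups used values centred on their group means, with 100000 permutations over all 91 libraries rather than within groups. The group means removed were not allowed for, so these permutation p-values may be too small. The fit was tested on simulated data. The members could be named in any comparison, and those not named in one are covered by its count. Of each other list the counts, up to 4 called genes of the largest change, or up to 2 of the lowest p where none passed, may be named. For likeness, the 3 genes with the highest Pearson r over the group means were sought, and some of them are not reported here. BOK, BIK and BID were named outside this rule, after their values were seen. The members and lists were chosen with earlier results of these data known.

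Alternatives were all 94 libraries with and without array weights, a pseudocount of 0.1, no filter, quantile normalization, size factors, zeros as missing, untreated tumors as reference, fitting only the groups compared, dose in mg/kg and leaving out each replicate. Differences between cage groups, each vehicle cage group alone as the reference and the sum of BCL2L2 and BCL2L2-PABPN1 were added after seeing the data.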

Additional observations from a re-analysis of the deposited data

Results flagged for a closer look

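In 25 of 183 pairs of a member and a group of 4 or 5 tumors, 1 tumor stood far from the rest, its gap to the next value being most of the range of the group. Chance gives about 1 in 20 such groups where values are normally distributed, which FPKM values need not be. Of the 25, 11 concerned BMF, to which this rate does not apply, since a group with 1 tumor above 0 always stands out. High values made up 21 of the 25.

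BMF stood out with 0.492 FPKM in vehicle 1 h replicate 2, 1.19 in 200 mg/kg 1 h replicate 4, 0.438 in untreated 3-6 h replicate 4 and 2.05 in vehicle cage group 2 replicate 1. It did so with 0.637 FPKM in 200 mg/kg cage group 4 replicate 5, 0.370 in 100 mg/kg cage group 6 replicate 4, 1.63 in 200 mg/kg cage group 5 replicate 2 and 1.54 in 30 mg/kg cage group 9 replicate 3. At 24 h it had 1.14 FPKM in vehicle replicate 3, 2.61 in 200 mg/kg replicate 4 and 0.734 in 30 mg/kg replicate 4.

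BCL2L11 was high with 18.6 FPKM in vehicle 1 h replicate 5, 15.2 in untreated 3-6 h replicate 1, 13.0 in 200 mg/kg cage group 5 replicate 1, 14.3 in untreated 24 h replicate 5 and 11.3 in 200 mg/kg 24 h replicate 4. The last of these tumors is also the one with 2.61 FPKM of BMF.

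BCL2 was high with 0.464 FPKM in untreated 1 h replicate 1 and 0.856 in 30 mg/kg cage group 9 replicate 4. BCL2L1 was low with 60.5 FPKM in 200 mg/kg 1 h replicate 2 and high with 59.9 in untreated 3-6 h replicate 4. BCL2L2 was high with 11.2 FPKM in 200 mg/kg 1 h replicate 4 and low with 2.18 in 200 mg/kg 24 h replicate 3. BBC3 was low with 3.75 FPKM in 200 mg/kg 1 h replicate 3, PMAIP1 low with 1.27 in vehicle cage group 3 replicate 1, and BAX high with 180.7 in vehicle cage group 2 replicate 3.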

How the results depend on the processing

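No paired analysis was possible because the labels carry no replicate numbers. With all 94 libraries 2 members passed at 30 mg/kg at 24 h, MCL1 (-1.18, adjusted p = 0.0433 by limma) and BAX (-1.48, adjusted p = 0.0424 by limma), where the shallow replicate lists both at 0 and the median over all genes was -0.65. In cage group 7 the count of members called was 0 in place of 1 with all 94 libraries, with array weights, with untreated tumors as reference, with only the groups compared and with vehicle cage group 2 alone as reference, and 0 to 1 when 1 library was left out. Of the other BCL2 family genes 2 passed at 200 mg/kg and 2 in the dose trend at 24 h. With all 94 libraries 0 and 0 passed, and 1 and 1 without a filter, with quantile normalization and with only the groups compared. With dose in mg/kg 1 passed in the trend, and leaving out 1 library gave 1 to 2 and 0 to 2.

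Signs turned for BCL2L2 at 200 mg/kg, to -0.27 at 24 h (array weights), -0.054 at 3-6 h (summed with BCL2L2-PABPN1) and 0.17 at 1 h (untreated as reference). They turned for BBC3 with all 94 libraries, to -0.17 at 30 and -0.30 at 100 mg/kg at 24 h and 0.18 at 200 mg/kg at 1 h, and to 0.025 at 200 mg/kg at 3-6 h with array weights. Leaving out 1 library gave -0.12 to 0.024 for BCL2L1, -0.052 to 0.41 for BCL2L2 and -0.19 to 0.44 for BMF at 200 mg/kg at 24 h. For BBC3 it gave -0.052 to 0.025 at 200 mg/kg at 3-6 h, -0.044 to 0.21 at 30 mg/kg at 1 h and -0.15 to 0.092 at 200 mg/kg at 1 h. The cause was not tested.

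Over all genes 966 passed at 200 mg/kg at 24 h, against 0 with all 94 libraries, 1975 with array weights and 275 with only the groups compared. In cage group 7 these were 173, 0, 62 and 14, and in the trend at 24 h 927, 5, 1777 and 397.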
